A study of Caenorhabditis elegans with 24 samples.

Results

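The loss of daf-16 was examined in adult Caenorhabditis elegans held at 25 °C, by setting 3 arrays of daf-16(mgDF47) mutants against 3 arrays of wild-type worms, 6 of the 24 arrays of the series. Arrays were chosen by genotype, stage and temperature as given in their titles. Each array held the RNA of about 120 adults pooled, which had been kept on standard NGM plates at 25 °C for 3 days, starting at late L4 (the last stage of larval life). The comparisons set beside it used 3 and 3 adults of the same genotypes and age kept at 15 °C, and 3 and 3 late L4 larvae (about 300 pooled) that had grown at 25 °C from the embryo. The mutants carry no further stated change, the wild-type strain is not named in the labels, and all worms were pooled whole. In such bulk samples fewer cells of a type and less RNA per cell cannot be told apart.

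The protein DAF-16 is the worm's FOXO transcription factor. Insulin-like peptides act through the receptor DAF-2 and the kinases AGE-1, PDK-1, AKT-1 and AKT-2, which phosphorylate DAF-16 and hold it in the cytoplasm. When the signal is weak, DAF-16 enters the nucleus and raises genes of stress defence, immunity and fat and sugar metabolism, known as class 1, while class 2 genes fall. Mutants without daf-16 do not gain the long life of daf-2 mutants, and the gene also limits ageing in worms with an intact receptor.

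Values are deposited log2 levels, and a difference of 1 is a 2-fold change. All differences are mutant minus wild type, with the standard error (SE) of the fit, and a gene was called when limma's two-sided moderated test gave a Benjamini-Hochberg adjusted p under 0.05 over the 25434 genes tested. Arrays of the wild type at 25 °C correlated across genes at 0.991 to 0.9945 and those of the mutant at 0.9943 to 0.9962, against 0.9902 to 0.9919 between genotypes, genes not being independent replicates. Wild-type preparation 1 stood somewhat apart: it correlated with the other wild-type preparations at 0.991, which correlated with each other at 0.9945. The p-values reflect the spread among preparations pooled over all groups of the series, larvae included, and not that of the adults at 25 °C alone. The labels do not say whether preparations were separate cultures, so the pooled spread may be technical.

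Of 25434 genes, 417 (1.64%) were lower and 345 (1.36%) were higher in the mutant adults at 25 °C. Changes of at least 2-fold were found in 138 of the lower and 65 of the higher genes. Median differences were -0.81 among the genes called lower and 0.69 among those called higher, against 0.02 over all genes. The 3 mutant arrays lay outside the range of the 3 wild-type arrays for 410 of the lower and 340 of the higher genes, and for 19.8% of all genes. In both directions 93% of the called genes were protein-coding, against 73.7% of those tested, and their median level was 5.56 and 6.11 against 3.67 over all genes. Counts depended on single arrays: without wild-type preparation 2 they were 220 lower and 166 higher, without mutant preparation 2 they were 264 and 200, and without mutant preparation 3 they were 246 and 149. Without wild-type preparation 1 they were 620 and 334, which moved the share lower from 54.7% to 65%.

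**Figure D1:**
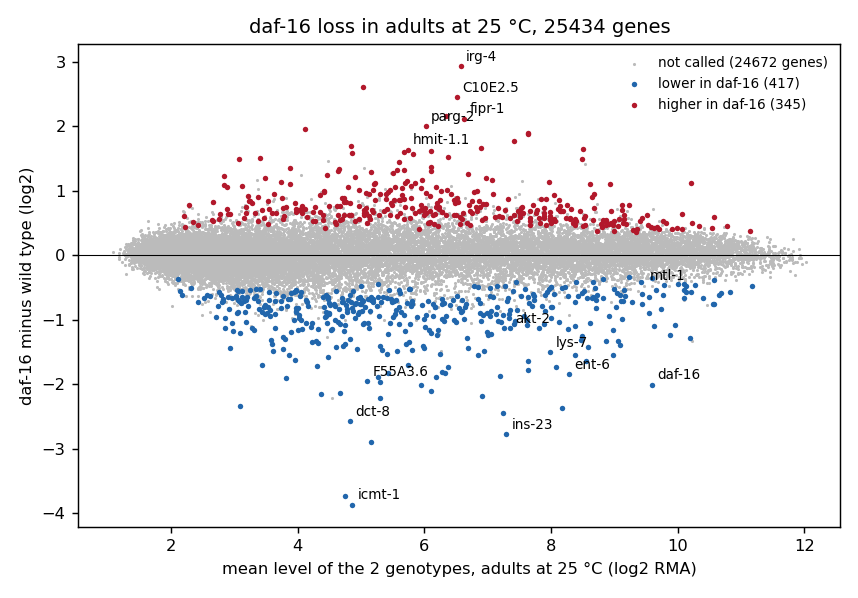
Each point is a gene, placed by its mean log2 level over both genotypes in adults at 25 °C (x axis) and its difference, mutant minus wild type, in log2 units (y axis). Genes called lower are blue (417), genes called higher are red (345) and the rest are grey; icmt-1 at -3.87 and irg-4 at 2.94 mark the extremes.

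The targeted gene checked the labels. The daf-16 probe set read 10.63, 10.56 and 10.59 in the 3 wild-type arrays and 8.72, 8.83 and 8.20 in the 3 mutant arrays. All mutant arrays lay below all wild-type arrays, by -2.01 ± 0.16 (SE, adjusted p = 5.25e-08). The sources used here do not place the probes relative to the deleted part, so the signal that remained is not read as transcript.

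The 2 nearest coding genes on one side of daf-16 were lower as well. F55A3.6, its immediate coding neighbour in the RefSeq gene order, read 5.97, 6.07 and 6.18 in the wild type and 4.06, 4.05 and 4.23 in the mutant. The groups were far apart, and the difference of -1.96 ± 0.18 (adjusted p = 4.54e-07) was close to that of daf-16 itself. It was also called in adults at 15 °C (-1.76) and in larvae at 25 °C (-1.61). The next gene, spt-16, encodes a subunit of the histone chaperone FACT and read 10.73, 10.72 and 10.72 against 9.96, 10.11 and 10.11. Its arrays did not overlap (-0.66 ± 0.11, adjusted p = 0.000974), and the difference recurred at 15 °C (-0.62, adjusted p = 0.003) while in larvae it was -0.35 (adjusted p = 0.51). On the other side B0205.4 stood at 0.43 ± 0.14 (adjusted p = 0.11). Of the 20 tested coding genes within 10 steps of daf-16, 3 were called, the remaining call being C35E7.10 at 7 steps (-0.61 ± 0.15, adjusted p = 0.0287), which is named here after its value was seen. Whether the deletion reaches these genes was not tested.

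**Figure D2:**
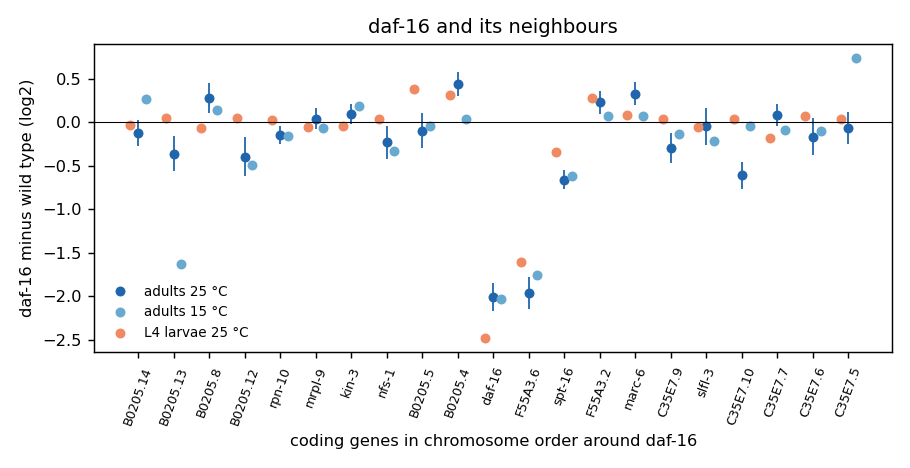
Difference between mutant and wild type in log2 units (y axis) for daf-16 and the 10 coding genes on each side in chromosome order (x axis), in adults at 25 °C (dark blue, bars are SE), adults at 15 °C (light blue) and L4 larvae at 25 °C (orange). daf-16 and F55A3.6 lie between -1.61 and -2.48 in all 3 comparisons.

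Separate groups were a condition for picking the largest falls and rises described next, so their separation is no further evidence. Among named genes with separate groups, the largest measured difference was that of icmt-1. It encodes isoprenylcysteine carboxyl methyltransferase, the enzyme that methylates prenylated proteins. The icmt-1 probe set read 7.82, 6.02 and 6.57 in the wild-type arrays and 2.57, 3.10 and 3.12 in the mutant arrays (-3.87 ± 0.27, adjusted p = 8.34e-09). W01C9.2, known only by a sequence name, read 7.34, 5.86 and 6.65 against 3.02, 2.82 and 2.81 (-3.73 ± 0.23, adjusted p = 1.11e-09). For both genes the mutant arrays were below the array medians of 3.55 to 3.70 and every wild-type array was well above them, and no fold is given because the mutant level may lie at the floor of the array. T05B9.3, likewise without a gene name, read 6.80, 6.78 and 6.23 against 3.97, 3.74 and 3.41 (-2.90 ± 0.17, adjusted p = 7.28e-10). For these 3 genes the groups did not overlap. H32K16.2, also with a sequence name only, was lower at -2.44 ± 0.21 (adjusted p = 1.05e-07).

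The insulin-like peptide gene ins-23 read 8.49, 8.44 and 9.10 in the wild type and 6.12, 5.52 and 6.06 in the mutant (-2.78 ± 0.22, adjusted p = 4.3e-08). No array of one genotype came near the other. The gene dct-8, named for control by DAF-16 and an effect on germ-line tumours, read 6.87, 5.75 and 5.71 against 3.55, 3.32 and 3.73 (-2.58 ± 0.23, adjusted p = 2.04e-07). Wild-type preparation 1 was the highest of its group for dct-8, icmt-1 and W01C9.2, and for unc-38, which encodes a subunit of the levamisole-sensitive acetylcholine receptor of body muscle (6.99, 5.92 and 6.10 against 4.40, 4.55 and 4.59). The unc-38 difference was -1.83 ± 0.20 (adjusted p = 3.43e-06), and the calls of all 4 genes remained without that preparation.

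Among the further falls, the neuronal gene hen-1, which encodes a secreted protein needed for sensory integration and learning, read 7.14, 6.94 and 7.32 against 5.29, 5.22 and 5.19 (-1.90 ± 0.17, adjusted p = 3.07e-07). Both groups were tight and lay apart. ent-6, of the equilibrative nucleoside transporter family, read 9.38, 9.13 and 9.10 against 7.61, 7.19 and 7.28 (-1.84 ± 0.14, adjusted p = 1.63e-08). The sugar transporter gene swt-3, of the SWEET family, read 7.63, 8.20 and 8.20 against 6.29, 5.57 and 5.60 (-2.19 ± 0.22, adjusted p = 1.77e-06). None of these groups overlapped. The chemoreceptor gene sri-43 (-1.71 ± 0.17), the claudin-like clc-24 (-1.71 ± 0.32), pqn-73, which encodes a protein rich in glutamine and asparagine (-1.73 ± 0.21), idpp-2 (-1.81 ± 0.16), the dienelactone hydrolase family gene dlhd-1 (-2.21 ± 0.36) and the cytochrome P450 gene cyp-13A5 (-1.88 ± 0.36) were also called. The lipase family gene lips-11 (-1.73 ± 0.41, adjusted p = 0.0176) lost its call without wild-type preparation 2, wild-type preparation 3 or mutant preparation 3, where adjusted p was 0.125, 0.0518 and 0.121.

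The largest named rise was irg-4, an infection response gene whose protein has a CUB-like domain. It read 4.66, 4.32 and 6.34 in the wild type and 7.89, 7.43 and 8.81 in the mutant, a 7.66-fold difference (2.94 ± 0.42, adjusted p = 0.000175). Preparation 3 was the highest of both genotypes, and the groups did not overlap. C10E2.5, known by its sequence name, read 5.47, 5.15 and 5.25 against 7.71, 7.92 and 7.61 (2.46 ± 0.12, adjusted p = 3.16e-11). The poly(ADP-ribose) glycohydrolase gene parg-2, whose product trims ADP-ribose chains from proteins, read 4.72, 4.91 and 5.43 against 7.01, 7.18 and 6.88, a 4-fold rise (2.0 ± 0.18, adjusted p = 2.97e-07). Every mutant array exceeded every wild-type array for both.

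The myo-inositol transporter gene hmit-1.1 read 5.33, 4.52 and 4.90 against 6.41, 6.64 and 6.62 (1.64 ± 0.23, adjusted p = 0.000189). The early embryonic gene sdz-6 read 7.70, 7.27 and 8.04 against 9.34, 9.41 and 9.23 (1.65 ± 0.22, adjusted p = 7.72e-05). Mutant arrays were close together for both, above the wild-type range. Further rises were those of fipr-1, of a family related to fungus-induced peptides (2.12 ± 0.39), the cytochrome P450 gene cyp-35A4 (1.51 ± 0.27), the F-box genes fbxb-40 (1.45 ± 0.23) and fbxa-72 (1.30 ± 0.14), the C-type lectin clec-3 (1.33 ± 0.19), the cytidine deaminase gene cdd-1 (1.32 ± 0.20), the acid phosphatase family gene pho-8 (1.26 ± 0.22) and the peptide receptor gene dmsr-11 (1.23 ± 0.20). F37B12.7 had a difference of 2.60 ± 0.51 (adjusted p = 0.0045), but mutant preparation 1 read 4.81 where preparations 2 and 3 read 7.30 and 6.90, and the call was lost in the fit of the 6 arrays alone (adjusted p = 0.0572). lact-6 (1.96 ± 0.42, adjusted p = 0.00897) lost its call without wild-type preparation 2 (adjusted p = 0.0796) or mutant preparation 1 (adjusted p = 0.0573). The claudin-like gene clc-19 (1.28 ± 0.32, adjusted p = 0.0275) lost its call in the fits that left out 1 array, except mutant preparation 2, where adjusted p was at most 0.154.

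**Figure D3:**
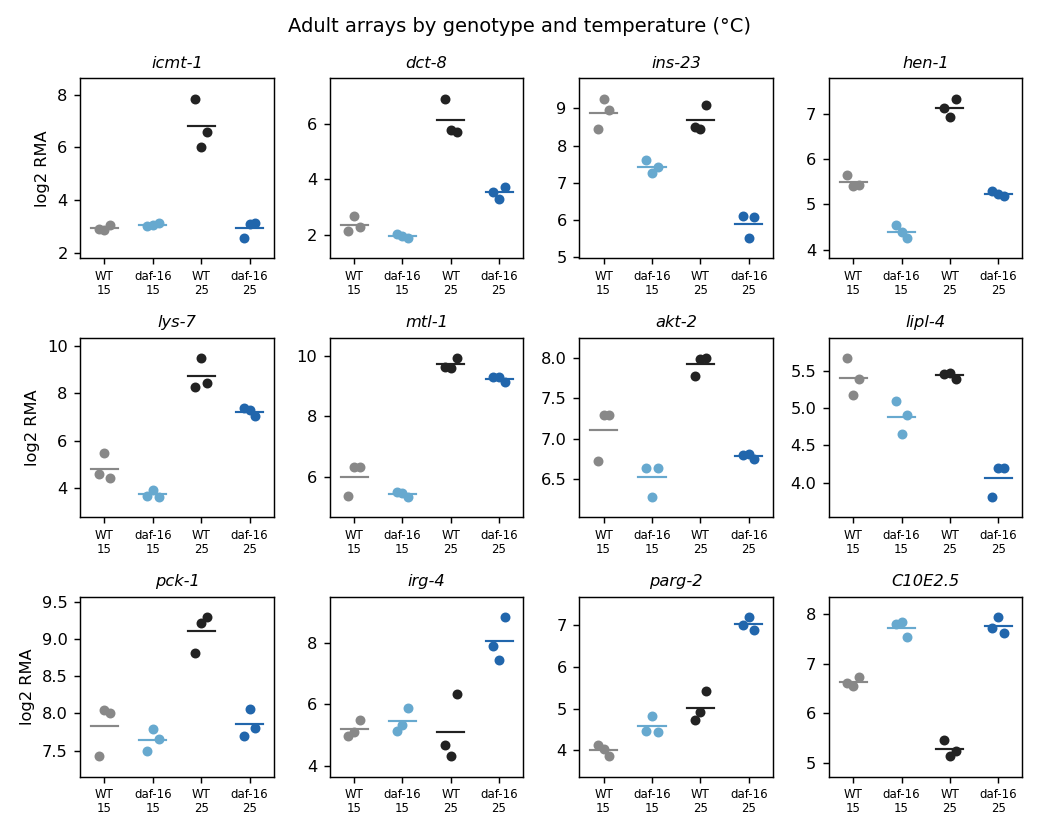
Log2 level (y axis) of 12 genes in each adult array, by genotype and temperature in °C (x axis); points are preparations 1 to 3 and bars are the group means. At 25 °C the wild-type and mutant points of all 12 genes are separate, while at 15 °C icmt-1 lies near 3 in both genotypes.

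Within the insulin-like pathway, the kinase gene akt-2 was the single member called. It read 7.78, 7.98 and 7.99 in the wild type and 6.80, 6.81 and 6.75 in the mutant, a 2.19-fold fall (-1.13 ± 0.15, adjusted p = 0.000119). The wild-type arrays lay within 0.21 of each other and the mutant arrays within 0.06. Of 20 listed pathway genes besides daf-16, 1 was lower and 0 higher (5% lower, against 1.64% of all genes), with a median of -0.13. The receptor gene daf-2 (-0.24 ± 0.21), the kinase genes age-1 (0.16 ± 0.13), pdk-1 (0.27 ± 0.12), akt-1 (-0.10 ± 0.12) and sgk-1 (-0.15 ± 0.17) and the phosphatase gene daf-18 (-0.07 ± 0.12), which opposes AGE-1, were not called. Of 24 genes for partner and longevity transcription factors 0 were called by limma.

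Of the 40 insulin-like peptide genes, 6 were lower and 1 higher (15% and 2.5%), with a median difference of -0.06. ins-10 read 4.71, 4.40 and 4.41 against 3.45, 3.42 and 3.73 (-0.97 ± 0.20, adjusted p = 0.00648). ins-27 read 4.70, 4.84 and 5.20 against 4.19, 3.94 and 3.74 (-0.96 ± 0.19, adjusted p = 0.00428). The groups of both were separate, as were those of ins-7, which encodes an agonist of DAF-2 and read 8.33, 9.20 and 8.41 against 7.61, 7.54 and 7.65 (-1.04 ± 0.23, adjusted p = 0.0115). The call of ins-7 was lost without wild-type preparation 2, which held its highest value (adjusted p = 0.102), without mutant preparation 2 (adjusted p = 0.0504) and in the fit of the 6 arrays alone (adjusted p = 0.0551). ins-29 (-0.72 ± 0.15) and ins-22 (-1.30 ± 0.34) completed the lower genes with ins-23. The ins-29 call was lost without wild-type preparation 3 (adjusted p = 0.0588), and the ins-22 call in the fits without 1 array, except wild-type preparation 1, up to an adjusted p of 0.221. The higher gene was daf-28, another agonist of the receptor, with 6.06, 5.55 and 5.83 against 6.26, 6.63 and 7.13 (0.86 ± 0.18, adjusted p = 0.00921), and its call was lost without wild-type preparation 2 (adjusted p = 0.0741) or mutant preparation 3 (adjusted p = 0.0846).

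Class 1 targets of DAF-16 were lower wherever they were called. Of 45 names listed, 27 had a gene tested here, and 13 of these were lower and 0 higher (48.1% against 1.64% of all genes), with 23 of 27 below 0 and a median of -0.64 against 0.02 over all genes. The list was set with earlier results of these data known. The number lower ran from 9 to 15 over the alternative fits and the number higher from 0 to 1.

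The lysozyme gene lys-7, a defence gene of the intestine, read 8.28, 9.48 and 8.46 in the wild type and 7.37, 7.29 and 7.04 in the mutant (-1.50 ± 0.24, adjusted p = 0.000785). Wild-type preparation 2 was the highest, and the mutant arrays lay below all 3. The small heat shock protein gene hsp-12.3 read 6.96, 5.97 and 6.01 against 4.61, 5.02 and 4.88 (-1.48 ± 0.27, adjusted p = 0.00277). dod-3, a gene downstream of DAF-16, read 5.25, 4.64 and 4.81 against 3.93, 3.53 and 3.22 (-1.34 ± 0.17, adjusted p = 6.46e-05). Neither gene had overlapping groups. nnt-1, which encodes the mitochondrial transhydrogenase that makes NADPH, read 4.38, 4.62 and 4.78 against 3.46, 3.47 and 3.35 (-1.16 ± 0.15, adjusted p = 5.3e-05). Its mutant arrays lay below the array medians. lea-1, of a family linked to survival of drying, read 9.80, 9.86 and 9.76 against 8.83, 9.14 and 9.19 (-0.75 ± 0.14, adjusted p = 0.00242). The calls of these 5 genes and of the catalase gene ctl-1 were kept in all 15 alternatives.

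Other class 1 calls rested on fewer fits. The cytochrome P450 gene cyp-34A9 (-1.54 ± 0.31) lost its call without wild-type preparation 2 (adjusted p = 0.0573), and cyp-35B1 (-1.13 ± 0.20) in the fit of the 6 arrays alone (adjusted p = 0.081). The small heat shock protein gene hsp-12.6 (-1.05 ± 0.25, adjusted p = 0.0211) lost it without wild-type preparation 1 or 2 or mutant preparation 2 or 3, up to an adjusted p of 0.105. The catalase gene ctl-2 (-0.73 ± 0.16, adjusted p = 0.0117) lost it without wild-type preparation 2 or 3 or mutant preparation 1, up to 0.0721. The glyoxalase gene djr-1.2 (-0.70 ± 0.18), the thaumatin-like gene thn-2 (-0.65 ± 0.18) and the ferritin gene ftn-1 (-0.64 ± 0.15) lost it without mutant preparation 3, with adjusted p of 0.134, 0.182 and 0.059. They also lost it without mutant preparation 2 or wild-type preparation 3, djr-1.2 and thn-2 without mutant preparation 1, and thn-2 without wild-type preparation 1 or 2, up to an adjusted p of 0.195.

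Some of the best known class 1 genes were not called. The mitochondrial superoxide dismutase gene sod-3 read 3.62, 3.36 and 3.38 against 3.30, 2.76 and 2.95 (-0.45 ± 0.16, adjusted p = 0.169), close to the array medians. The metallothionein gene mtl-1 read 9.63, 9.59 and 9.91 against 9.29, 9.30 and 9.12 (-0.48 ± 0.31, adjusted p = 0.57). Groups were separate for both, as they were for 19.8% of all genes. The SE of mtl-1 includes its wider spread in other groups of the fit. Neither gene was called in any of the 15 alternatives, the fit of the 6 arrays alone among them. The glyoxylate cycle gene icl-1 stood at -0.56 ± 0.19 (adjusted p = 0.127). The heat shock gene hsp-16.2 stood at 0.23 ± 0.17 (adjusted p = 0.642), with all arrays at 1.39 to 2.05, below the array medians.

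Of the 14 class 2 genes tested, 3 were higher and 1 lower (21.4% and 7.14%), with a median of 0.31 that was 0.14 without wild-type preparation 1. The intestinal oligopeptide transporter gene pept-1 read 7.80, 7.73 and 8.0 against 8.41, 8.59 and 8.58 (0.69 ± 0.12, adjusted p = 0.00203), with separate groups, and kept its call in all alternatives. dod-24 (0.94 ± 0.25, adjusted p = 0.0436) and dod-17 (0.67 ± 0.16, adjusted p = 0.0167) were higher, but lost their calls without mutant preparation 3 (adjusted p = 0.242 and 0.128), which left 1 class 2 gene called higher. dod-24 also lost it without wild-type preparation 1 or 2 or mutant preparation 1, and dod-17 without wild-type preparation 3 (adjusted p = 0.0978). The lower gene was ins-7, so it moved against the direction that gives class 2 its name. The yolk protein genes vit-2 (-0.25 ± 0.24) and vit-5 (-0.04 ± 0.31) were not called, as were all 5 vitellogenin genes.

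**Figure D4:**
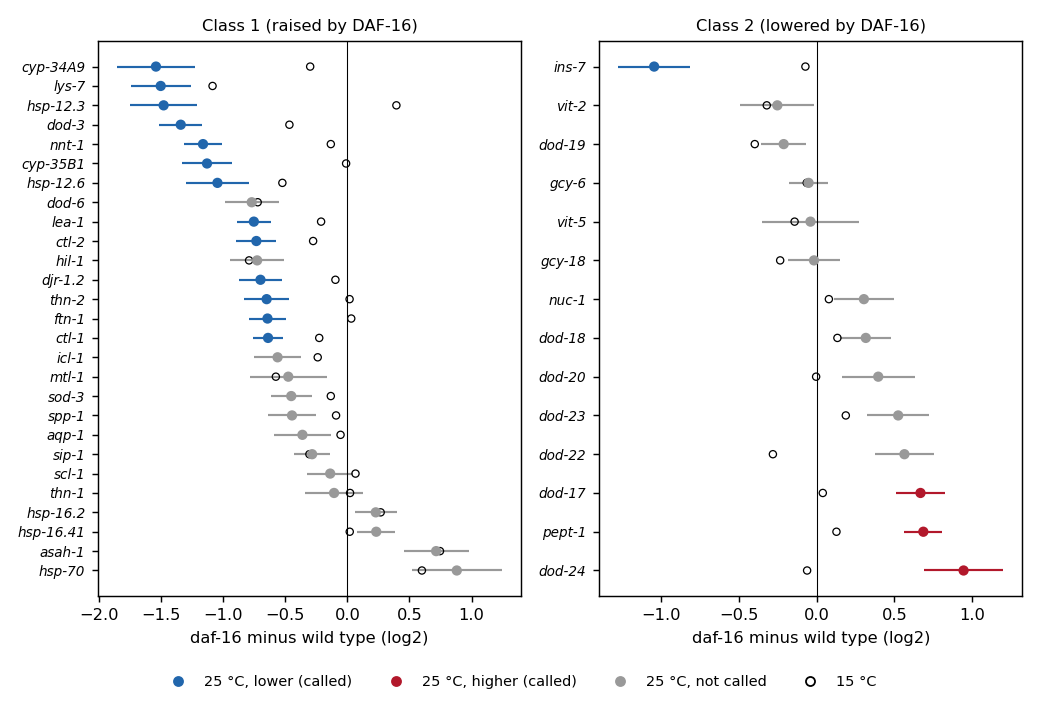
Difference between mutant and wild type in log2 units (x axis) for each tested class 1 gene (left) and class 2 gene (right). Filled points with SE bars are adults at 25 °C (blue called lower, red called higher, grey not called) and open circles are adults at 15 °C; 13 of 27 class 1 genes are blue, and ins-7 is the blue point of class 2.

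Among stress genes, 2 of 58 heat shock protein and chaperone genes were lower, hsp-12.3 and hsp-12.6, and 0 higher (3.45% lower), with a median of 0.01, and 1 was lower without wild-type preparation 1 or 2 or mutant preparation 2 or 3. Of 31 antioxidant and metallothionein genes, 4 were lower and 1 higher (12.9% and 3.23%). The 3 catalase genes were lower together. ctl-1, the cytosolic form, read 8.69, 8.82 and 8.74 against 8.18, 8.09 and 8.07 (-0.64 ± 0.12, adjusted p = 0.00349). ctl-3 read 8.41, 8.42 and 8.35 against 7.74, 7.50 and 7.54 (-0.80 ± 0.19, adjusted p = 0.0178), and lost its call without wild-type preparation 2 or mutant preparation 2 or 3 (adjusted p up to 0.0804). No catalase groups overlapped, but the copies are adjacent and nearly identical, so probes may not separate them. The cytosolic superoxide dismutase gene sod-5 (-0.68 ± 0.14) was lower and the methionine sulfoxide reductase gene msra-1 (0.75 ± 0.19) higher, both fragile: sod-5 lost its call without mutant preparation 3 (adjusted p = 0.0597), and msra-1, whose groups overlapped, in all fits without 1 array but that without wild-type preparation 3 (adjusted p up to 0.204). The list had 2 lower genes without wild-type preparation 2 or without mutant preparation 3.

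Of 74 cytochrome P450 genes, which include enzymes of detoxification, 6 were lower and 2 higher (8.11% and 2.7%, median -0.11), with 1 higher without wild-type preparation 1 or 2 or mutant preparation 2 or 3. cyp-13A5 read 7.95, 8.23 and 8.21 against 6.30, 6.40 and 6.04, and cyp-35A4 read 3.40, 2.32 and 2.25 against 4.35, 3.99 and 4.16. The groups were separate in both genes, cyp-13A5 below and cyp-35A4 above the wild type. For cyp-35A4 the wild-type arrays lay below the array medians. cyp-34A2 was lower by -1.16 ± 0.22 (adjusted p = 0.00294). Of 67 UDP-glucuronosyltransferase genes, whose enzymes attach sugar to small molecules, 5 were lower and 5 higher (7.46% each, median 0.02). ugt-64 (-0.79 ± 0.13, adjusted p = 0.00124) and ugt-30 (1.06 ± 0.21, adjusted p = 0.00596) kept their calls in all alternatives. The lower count became 2, 3 and 3 without wild-type preparation 2 or mutant preparation 1 or 3, and the higher count 2 and 3 without wild-type preparation 2 or mutant preparation 3. Of 48 glutathione S-transferase genes, gst-4 (-0.90 ± 0.23) and gst-30 (-0.80 ± 0.18) were lower (4.17%, against 1.64% of all genes) and 0 higher. The gst-4 call was lost in 5 fits without 1 array, all but that without wild-type preparation 2 (adjusted p up to 0.132), and the gst-30 call without wild-type preparation 1 or 2 or mutant preparation 3 (adjusted p up to 0.115), so that 0 of the 48 were called without mutant preparation 3.

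Immune genes were read by family. Of 56 lysozyme, saposin-like and antibacterial peptide genes, 6 were lower and 2 higher (10.7% and 3.57%, median -0.13), though leaving out any one of the 6 arrays left 3 lower. The number higher was 0 without wild-type preparation 2 or mutant preparation 2 or 3 and 1 without preparation 1 of either genotype, and the median was -0.08 without wild-type preparation 3. The antibacterial factor gene abf-2 read 8.93, 9.35 and 9.11 against 7.74, 7.96 and 7.75 (-1.32 ± 0.22, adjusted p = 0.00119). The saposin-like gene spp-2 read 3.93, 3.86 and 4.09 against 2.91, 3.20 and 3.07 (-0.90 ± 0.19, adjusted p = 0.00825). With lys-7 these kept their calls in all alternatives, and their groups did not overlap. For spp-2 the mutant arrays lay below the array medians.

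Of 22 epidermal antimicrobial peptide genes, 3 were higher and 0 lower (13.6% against 1.36% of all genes), with a median of 0.03. The caenacin gene cnc-6 read 5.72, 6.23 and 5.91 against 6.74, 6.95 and 7.03 (0.95 ± 0.14, adjusted p = 0.000382). nlp-31 read 2.56, 3.04 and 2.86 against 3.64, 3.68 and 3.67 (0.85 ± 0.17, adjusted p = 0.00688). Its wild-type arrays lay below the array medians and its mutant arrays close to them, so the size is uncertain. nlp-28 read 5.02, 6.01 and 4.09 against 6.33, 6.63 and 6.88 (1.57 ± 0.30, adjusted p = 0.00434), and was not called in the fit of the 6 arrays alone (adjusted p = 0.112). In all 3 genes the mutant arrays were above every wild-type array, most narrowly in nlp-28.

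Of 11 infection response and CUB-domain genes, 4 were higher and 0 lower (36.4%), with a median of 0.65 and 10 of 11 above 0. Besides irg-4, dod-24 and dod-17 these included irg-6, at 3.98, 4.80 and 4.13 against 5.43, 5.12 and 5.99 (1.21 ± 0.25, adjusted p = 0.00662). Its groups were separate, but the call was lost without mutant preparation 3 (adjusted p = 0.0612), where irg-4 was the list's 1 called gene and the median was 0.40. Of 247 C-type lectin genes 4 were lower and 6 higher (1.62% and 2.43%), near the shares of all genes. clec-75 (-1.13 ± 0.20) and clec-74 (1.10 ± 0.15, adjusted p = 0.000111) moved in opposite directions. The lectin counts ran from 1 to 9 lower, with 9 without wild-type preparation 1, 1 without wild-type preparation 3 or mutant preparation 1, and 2 without mutant preparation 2 or 3. The higher count was 3 without wild-type preparation 2 or mutant preparation 2 or 3.

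Calls among 26 lipase genes and 61 genes of fatty acid activation and beta-oxidation were 9 lower and 1 higher. Their shares below stand beside 1.64% lower and 1.36% higher of all genes. The higher one was the lipase gene lips-10 (0.68 ± 0.17), which lost its call in 5 fits without 1 array (all but that without mutant preparation 1, adjusted p up to 0.144). The lysosomal lipase gene lipl-4, which extends life when raised in the intestine, read 5.46, 5.47 and 5.39 against 3.81, 4.20 and 4.20 (-1.37 ± 0.17, adjusted p = 2.6e-05). lipl-2 read 7.47, 7.50 and 8.06 against 6.56, 5.88 and 6.13 (-1.49 ± 0.27, adjusted p = 0.00216). Both had separate groups. Of 26 lipase genes, 4 were lower and 1 higher (15.4% and 3.85%, median -0.07), with 2 lower without wild-type preparation 2 or mutant preparation 3. The peroxisomal acyl-CoA oxidase gene acox-1.4 read 8.67, 8.75 and 9.11 against 7.63, 7.69 and 7.80 (-1.14 ± 0.13, adjusted p = 1.13e-05). The acyl-CoA synthetase gene acs-7 read 5.41, 5.90 and 5.77 against 4.19, 4.86 and 4.64 (-1.13 ± 0.16, adjusted p = 0.00021). Mutant arrays lay below the wild type in both. Of 61 genes of fatty acid activation and beta-oxidation 5 were lower and 0 higher (8.2%, median -0.18), with 2 or 3 lower without wild-type preparation 2 or any of the 3 mutant preparations.

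Calls among 16 desaturase and elongase genes and 29 genes of sugar metabolism were 5 lower and 1 higher. Their shares below stand beside 1.64% lower and 1.36% higher of all genes. Of the 16, the elongase genes elo-7 (-0.97 ± 0.22) and elo-6 (-0.56 ± 0.15, adjusted p = 0.045) were lower (12.5%). The desaturase gene fat-7 stood at -0.09 ± 0.27 (adjusted p = 0.943). The elo-7 call was lost without wild-type preparation 2 or mutant preparation 2 or 3 (adjusted p up to 0.0834), and the elo-6 call in 5 fits without 1 array, all but that without wild-type preparation 2 (adjusted p up to 0.225), which left 0 of the 16 called without mutant preparation 2 or 3. The gluconeogenesis gene pck-1, for phosphoenolpyruvate carboxykinase, read 8.82, 9.22 and 9.29 against 7.70, 8.05 and 7.80 (-1.26 ± 0.19, adjusted p = 0.000421). Its paralog pck-2 (-0.56 ± 0.11) and the glyceraldehyde-3-phosphate dehydrogenase gene gpd-2 (-0.80 ± 0.14) were lower with separate groups, and both lost their calls in the fit of the 6 arrays alone (adjusted p = 0.0674 and 0.0609). The trehalase gene tre-3 was higher (0.61 ± 0.16, adjusted p = 0.0411), a call lost in all fits without 1 array but that without wild-type preparation 2 (adjusted p up to 0.173). These made 3 lower and 1 higher (10.3% and 3.45%) of 29 genes of the glyoxylate, trehalose, glycogen and glycerol pathways. Of 12 aquaporin and 17 fatty acid and retinol binding protein genes 0 were called by limma.

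Ribosomal protein genes showed small differences, most of them below 0. Of 61 cytosolic ribosomal protein genes, 55 were below 0, the median was -0.20 against 0.02 over all genes, and 6 were lower and 0 higher (9.84%). rps-27 had means of 10.96 ± 0.10 and 10.35 ± 0.04 (SD, n = 3 each, wild type first; -0.61 ± 0.10, adjusted p = 0.000533), with separate groups. The list's median ran from -0.24 to -0.16 over the scaling alternatives, and 3, 3 and 2 genes were lower without wild-type preparation 2 or 3 or mutant preparation 2. At 15 °C the median was -0.21 with 3 lower, and in larvae at 25 °C it was -0.04 with 0 called.

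Of 175 cuticle collagen genes, 4 were lower and 0 higher (2.29%), and 7 were lower without wild-type preparation 1. col-124 read 7.72, 8.38 and 8.39 against 6.94, 7.05 and 7.27 (-1.08 ± 0.19, adjusted p = 0.0015). col-42 (-1.05 ± 0.22) and col-94 (-1.02 ± 0.18) were similar in size, and the groups of all 3 were separate. Of 96 neuropeptide genes 2 were lower and 1 higher, and of 271 nuclear hormone receptor genes 1 was lower and 2 higher, shares of 0.369% to 2.08%. There were 0 neuropeptide calls without mutant preparation 2, with 1 lower without wild-type preparation 3 and 0 higher without wild-type preparation 1 or 2 or mutant preparation 3. Leaving out single arrays gave 0 to 2 lower and 0 to 3 higher receptor genes, with 0 of either without wild-type preparation 2 or mutant preparation 3, 0 lower without mutant preparation 1 and 0 higher without mutant preparation 2. The 29 moulting genes, 20 genes of stress in the endoplasmic reticulum, 31 proteasome subunit genes and 38 genes of DNA replication and cell division had 0 calls by limma in either direction.

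Markers of tissues were read beside these groups. Mean log2 levels of 28 intestinal markers ran from 8.04 to 8.43 in the wild-type arrays and from 8.25 to 8.26 in the mutant arrays, with 1 marker lower (the gut esterase gene ges-1, -1.12 ± 0.24, adjusted p = 0.00961) and 2 higher. ges-1 lost its call without wild-type preparation 2 or 3 or mutant preparation 3 (adjusted p = 0.0768, 0.0618 and 0.0507). Ranges also overlapped for 31 body wall muscle markers (7.68 to 7.83 against 7.57 to 7.78), 27 neuronal markers (6.02 to 6.18 against 6.02 to 6.21) and 25 epidermal markers (6.67 to 6.83 against 6.70 to 6.90). The markers of the germ line gave 10.02 to 10.12 against 9.93 to 10.06, and those of early embryos 4.61 to 4.86 against 4.78 to 4.90. Of the 7 lists, sperm markers varied most, from 3.74 to 4.51 in the wild type against 3.88 to 3.93, with 0 of 25 called, and 4 lower without wild-type preparation 1. The tissue lists held 1 call in each direction in muscle, 1 higher in the germ line, 2 lower and 1 higher in embryos, and 0 in neurons and epidermis. The higher muscle call was lost without any one of the 6 arrays and the lower one without wild-type preparation 3, and the germ-line call without preparation 1 or 3 of either genotype. Embryo genes lower were 0 without wild-type preparation 2 or mutant preparation 3 and 1 without any other array, and intestinal markers higher ran from 1 to 5, with 5 without wild-type preparation 3. The ranges above are for 25 °C. At 15 °C the ranges were separate for early embryo markers, from 4.10 to 4.38 in the wild type against 4.58 to 4.64. Those of germ-line markers (10.24 to 10.31 against 10.12 to 10.15) and epidermal markers (6.15 to 6.29 against 6.30 to 6.44) were separate too. The ranges of the other lists overlapped. The part of tissue amounts in the results was not tested.

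Some genes called lower lay next to each other. In the RefSeq gene order, 54 of 388 lower coding genes (13.9%) had an adjacent gene that was also lower, against 4.04% of all 18737 coding genes. For the higher genes the shares were 5.61% (18 of 321) and 3.38%. Runs of at least 3 were daf-16 with F55A3.6 and spt-16, the 3 catalase genes with Y54G11A.7, and a run of W01C9.1, W01C9.2, pqn-73 and decr-1.2. The remaining run was F56D6.9, F56D6.8 and dct-8, in which F56D6.8 read 6.66, 6.91 and 7.89 against 5.03, 5.04 and 5.07 (-2.11 ± 0.24, adjusted p = 8.36e-06). These runs were named after their values were seen. The 54 genes include those at the mutated daf-16 locus and the catalase copies, which probes may not separate.

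The same comparison in adults at 15 °C shared no array with that at 25 °C. There 130 genes (0.511%) were lower and 244 (0.959%) higher, 1.47% in all against 3% at 25 °C. Lower genes numbered 49 to 77 without wild-type preparation 2 or 3 or any mutant preparation at 15 °C, and higher genes 101 to 107 without wild-type preparation 3 or mutant preparation 2 or 3. Of the genes lower at 25 °C, 51 were also lower at 15 °C (12.2% of 417 and 39.2% of 130), and of the higher genes 47 (13.6% of 345 and 19.3% of 244). By sign alone, 324 of the 417 lower genes (77.7%) and 304 of the 345 higher genes (88.1%) had the same direction at 15 °C, against 49.6% of all genes below 0 and 50.4% above 0 there. Their median differences at 15 °C were -0.24 and 0.29. At 15 °C 1 of 27 class 1 genes, lys-7 (-1.09, adjusted p = 0.023), was called, and the median of the list was -0.13. The difference between the temperatures, tested directly as described next, was called for 2 of these 27 genes, against 0.267% of all genes. Differences of ent-6 (-1.83), H32K16.2 (-2.16) and daf-16 itself (-2.04) were close to those at 25 °C.

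The difference between the temperatures was tested directly, as the effect at 25 °C minus the effect at 15 °C. It was called below 0 for 60 genes (0.236%) and above 0 for 8 (0.0315%), and 55 of these 68 were also called at 25 °C. Of these 55 genes, 47 were lower and 8 higher at 25 °C. The number below 0 was 101 without wild-type preparation 1 at 25 °C, and 27 to 39 without wild-type preparation 2 or mutant preparation 1 or 3 at 25 °C or wild-type preparation 1 or 3 or mutant preparation 2 or 3 at 15 °C. The number above 0 was 13 and 14 without wild-type preparation 1 or 3 at 25 °C, and 4 or 5 without mutant preparation 3 at 25 °C or any array but wild-type preparation 3 and mutant preparation 1 at 15 °C. At 15 °C icmt-1 stood at 0.12 (difference of effects -4.0, adjusted p = 4.35e-06), W01C9.2 at -0.14 (-3.60, adjusted p = 3.1e-06), T05B9.3 at -0.11 (-2.78) and idpp-2 at 0.58 (-2.39). The wild-type level of icmt-1 was 3.87 higher at 25 °C than at 15 °C and the mutant level differed by -0.13, which uses the same arrays at 25 °C. For W01C9.2 these differences were 3.37 and -0.22, and for T05B9.3 they were 3.52 and 0.74. None of these 3 genes was called at 15 °C. There the mean levels of both genotypes lay below the array medians for all 3, so a fall may be hidden by the floor of the array.

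C10E2.5 differed in another way. It was higher in the mutant at both temperatures, by 2.46 and 1.09, with a called difference of effects of 1.36 (adjusted p = 0.00028). Its wild-type level at 25 °C minus that at 15 °C was -1.34, and its mutant level differed by 0.02. parg-2 was higher by 0.57 at 15 °C (adjusted p = 0.14) and its difference of effects was 1.44 (adjusted p = 0.0102). F55G11.2, higher by 1.90 ± 0.19 at 25 °C and 0.27 at 15 °C, had a difference of effects of 1.63 (adjusted p = 0.00397). The early embryonic T-box gene tbx-43 was called at both temperatures in opposite directions, -1.0 at 25 °C and 1.12 at 15 °C, the single gene of which this was so among the 417 and 345. Its call at 25 °C was lost without wild-type preparation 1 or 2 or mutant preparation 3 (adjusted p up to 0.132). Of the 35 early embryo markers, tbx-43 among them, 7 were higher and 0 lower at 15 °C, against 0.959% of all genes higher. Whether tbx-43 followed a shift of these markers was not tested. For irg-4 the difference of effects was 2.67 but not called (adjusted p = 0.0554), and for lys-7 it was -0.42 (adjusted p = 0.95).

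**Figure D5:**
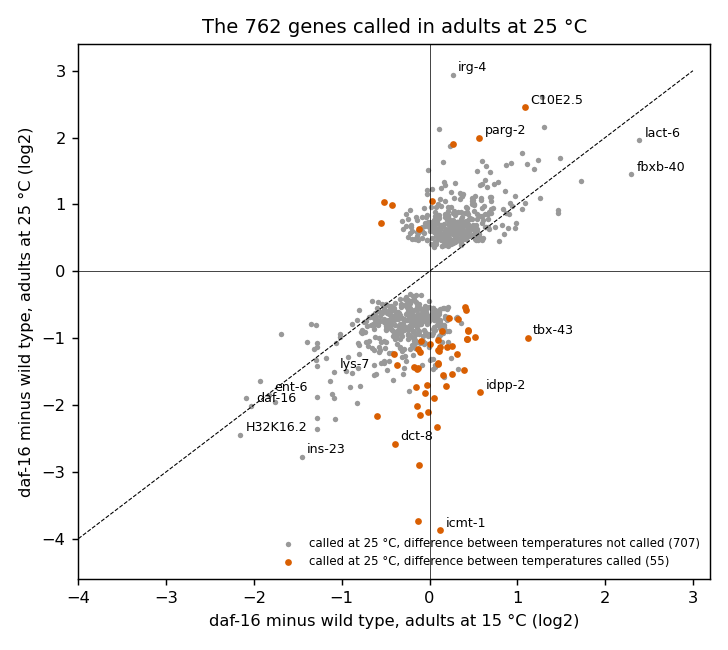
Each point is one of the 762 genes called in adults at 25 °C, with its difference between mutant and wild type at 15 °C (x axis) and at 25 °C (y axis), in log2 units. Orange points (55) have a called difference between the temperatures and grey points (707) do not; the dashed line marks equal differences, with daf-16 and ent-6 near it and icmt-1 far below it.

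In L4 larvae at 25 °C the mutation gave 27 lower genes (0.106%) and 3 higher (0.0118%), the latter 7 without wild-type or mutant larval preparation 3. Of the genes lower in adults at 25 °C, 9 were lower in larvae (2.16% of 417 and 33.3% of 27), and of the higher genes 0 were. Adults and larvae were probably normalised apart, so only differences within a stage were compared. The adult and larval differences themselves differed for 67 genes below 0 (0.263%) and 46 above (0.181%), 0.444% in all. Without wild-type adult preparation 1 these were 170 and 87, without wild-type adult preparation 2 they were 35 and 20, and without mutant adult preparation 3, wild-type larval preparation 2 or 3 or mutant larval preparation 1 or 2 the number above 0 was 24 to 30. The ins-23 difference was -0.12 in larvae against -2.78 in adults (adjusted p of the difference = 7e-05), that of hen-1 was -0.07 against -1.90 (adjusted p = 0.00029) and that of C10E2.5 was -0.03 against 2.46 (adjusted p = 3e-08). By contrast, mtl-1 was lower by -1.87 in larvae (adjusted p = 0.0058) and by -0.48 in adults, a difference that was not called (adjusted p = 0.21).

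The 4 genes lower in all 3 comparisons were daf-16, F55A3.6, ent-6 and Y54G2A.36, and 0 were higher in all. ent-6 was lower by -1.84, -1.83 and -1.89 in adults at 25 °C, adults at 15 °C and larvae at 25 °C. Y54G2A.36 was lower by -2.37, -1.28 and -2.63, at 9.75, 9.07 and 9.26 in wild-type adults at 25 °C against 7.03, 6.94 and 7.03 in the mutant. Its groups of adults at 25 °C did not overlap.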

How the data were processed

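RNA levels were deposited by the authors as log2 values made with RMA, per the submitters' processing notes, without a version or settings. Array medians were 3.55 to 3.70 in adults and 2.96 to 3.08 in larvae, and 3 probe sets are blank in all adults. Of 29317 probe sets, 25484 had 1 gene symbol (25433 found in RefSeq by gene ID), 700 several and 3133 none. The brightest probe set was kept for 41 genes with several.

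Group means of all 24 arrays in 8 groups were fitted with limma 3.58.1 in R 4.3.3 (16 residual and 6.06 prior degrees of freedom), with Benjamini-Hochberg adjustment over 25434 genes and no filter. The median SE was 0.16, and the number of arrays limits precision. Data were simulated with 25434 genes, 200 of them changed, and independent normal noise with 1 SD per gene for all 8 groups. There 84% of changes of 1 and 19% of changes of 0.5 log2 units were recovered in adults at 25 °C, with 2.83% of calls false. Real arrays may share deviations and differ in spread, so these rates are not those of the real calls. Gene lists are described by counts and medians.

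Named genes are daf-16, its neighbours and pathway, 10 sentinels and up to 4 members a list and direction. The 6 largest differences between temperatures each way were added. So were the 15 largest named falls and rises and 3 each with sequence names, picked among called genes whose groups did not overlap. All members of the class 1, class 2, insulin-like peptide and antioxidant lists were recomputed in the alternatives besides. Values are printed for part of them only, mainly called genes. The members and lists were chosen with earlier results of these data known. Deviations of arrays with the same preparation number correlated at -0.07, -0.04 and 0.10 across genes between the genotypes. With 3 arrays per group these values cannot decide whether the numbers pair the arrays. Promoter motifs were planned and not analysed here. Gene order came from RefSeq (WBcel235).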

Additional observations from a re-analysis of the deposited data

Results flagged for a closer look

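By the test of the difference itself, the effect of daf-16 loss in adults differed between temperatures in 20 of the named genes. The largest differences each way had been added to the named genes for their result in this same test. The count of 20 was therefore partly fixed by that choice. Over all genes 68 (0.267%) were called. The values below are the effect at 25 °C minus the effect at 15 °C in log2 units. Below 0 were icmt-1 (-4.0), W01C9.2 (-3.60), T05B9.3 (-2.78), F55D12.9 (-2.42), idpp-2 (-2.39), dct-8 (-2.19), tbx-43 (-2.12), hsp-12.3 (-1.87), unc-38 (-1.78), sri-43 (-1.68), pqn-73 (-1.58), the collagen gene col-94 (-1.45), clec-75 (-1.34) and the troponin T gene tnt-2 (-1.03). Above 0 were F55G11.2 (1.63), ugt-32 (1.57), parg-2 (1.44), F20A1.8 (1.42), C10E2.5 (1.36) and C34B4.3 (1.28). The call of 8 of these was kept in every alternative run: icmt-1, W01C9.2, T05B9.3, idpp-2, sri-43, F55G11.2, F20A1.8 and C10E2.5. It was lost in 1 alternative for dct-8, parg-2, tbx-43, unc-38 and F55D12.9, in 3 for col-94, 7 for pqn-73, 9 for hsp-12.3, tnt-2 and ugt-32, 10 for C34B4.3 and 13 for clec-75. For icmt-1, W01C9.2 and T05B9.3 the mean levels of both genotypes at 15 °C lay below the array medians, where a fall may be hidden.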

How the results depend on the processing

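In adults at 25 °C, genes lower and higher were 234 and 156 in the fit of the 6 arrays alone and 1069 and 990 with array weights, and 349 to 484 and 339 to 446 under the other 7 settings that kept all 6 arrays. Leaving out single arrays gave 220 to 620 lower and 149 to 334 higher. Centring arrays on their medians took the share lower from 54.7% to 45.2%. In adults at 15 °C the counts were 86 and 146 in the fit of the 12 adult arrays and 332 and 465 with array weights, and without single arrays 49 to 158 and 101 to 211. Differences between the temperatures numbered 21 below and 4 above 0 in the fit of the 12 adult arrays, 134 and 41 with array weights, and without single arrays 27 to 101 and 4 to 14. In larvae 5 genes were higher with cyclic loess and 8 with array weights, and 2 to 7 without single arrays. Differences between adults and larvae numbered 211 below and 173 above 0 with array weights, and 35 to 170 and 20 to 87 without single arrays. The alternatives for larvae and for this comparison, and those leaving out arrays at 15 °C, were chosen after seeing the data. The cause was not tested. Whether the preparation numbers pair the arrays could not be decided. With the number as a replicate block, 484 genes were lower and 438 higher at 25 °C, 15 differences between temperatures were above 0, and 8 genes were higher in larvae. Of 133 named or listed genes called at 25 °C, 63 kept the call in all alternatives that tested them (15, or 14 for dmsr-11 and F55D12.9, which were left out with the dimmest genes) and 70 lost it in at least 1, with 0 reversed. Promoter motifs were not run.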

Other observations

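The 3833 probe sets without a single gene name were tested apart from the named genes. Of these, 77 were lower and 26 higher in the mutant adults at 25 °C (2.69% called). Some of the called probe sets had identical values and were counted apart, so distinct signals are fewer.

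Counts by the letters of a gene's name, made and picked after the values were seen and with no test, show families outside the lists, beside 1.64% lower and 1.36% higher over all genes. Of 58 ttr genes, which encode transthyretin-like proteins, 5 were lower (8.62%) and 0 higher. Of 34 cest carboxylesterase genes 3 were lower (8.82%), as were 3 of 30 dhs dehydrogenase genes (10%), 3 of 56 sri chemoreceptor genes (5.36%) and 3 of 103 srx chemoreceptor genes (2.91%), with 0 higher in each. The F-box families gave 2 lower and 5 higher of 188 fbxa genes (1.06% and 2.66%), near the shares of all genes, 0 lower and 3 higher of 108 fbxb genes (2.78%) and 0 lower and 3 higher of 44 fbxc genes (6.82%). Of 64 ceh homeobox genes 0 were lower and 3 higher (4.69%), and of 27 fipr genes 0 were lower and 3 higher (11.1%).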
